A study of Mus musculus with 12 samples.

Results

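The genes described here were 9 homeobox transcription factors of regional patterning in the embryonic brain, grouped for their expression around the midbrain and hindbrain, namely the Engrailed genes En1 and En2, the gastrulation brain homeobox gene Gbx2, the orthodenticle genes Otx1 and Otx2, and the Iroquois genes Irx1, Irx2, Irx3 and Irx5. They were chosen by name, and all 9 were among the 18911 genes measured. The choice was made with their presence in these cells and their change over the genotypes known, so their levels and fold changes are given as a description with no test. The samples were 12 libraries of poly(A)-selected RNA from neural progenitor cells (mNPCs) grown from the hippocampus of newborn (P0) mice, 3 libraries in each of 4 genotypes. Kmt2a+/+ cells were wildtype. Kmt2a+/LSL cells carried a loxP-stop-loxP cassette in the first intron of 1 allele of Kmt2a, which encodes an H3K4 methyltransferase. Nes-Cre+/- Kmt2a+/LSL cells carried the same allele together with a nestin-Cre transgene, which removes the cassette in the nervous system in utero. Nes-Cre+/- Kmt2a+/+ cells carried the transgene without the cassette. All cells were expanded in medium with FGF-2 and EGF, so every level below is that of a culture and not of the tissue. The study calls replicates of a genotype biological, but the sources did not say whether the 3 libraries came from separate animals or cultures, and the spread between them may therefore be partly technical.

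In the embryo, Otx2 marks the forebrain and midbrain and Gbx2 the anterior hindbrain, and the isthmic organizer forms where they meet. The organizer secretes Fgf8 and Wnt1, and En1 and En2 act downstream of these signals to pattern the tectum and cerebellum. Otx1 is also a gene of the dorsal telencephalon, from which the hippocampus arises, while Iroquois genes are best known from the neural plate behind the forebrain. The comparison asked which of these positional factors were present in cultured hippocampal progenitors and how their levels lay in the 4 genotypes.

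The homeodomain ends in a recognition helix that sits in the major groove of DNA, and the bases that encode it show how alike the members are and where short reads could be shared. In each gene the reading frame held 1 place where TGGTT is followed by any 4 bases, AA and 1 further base. The 48 coding bases around it are given 5′ to 3′ on the coding strand, with those 12 bases in capitals.
En1: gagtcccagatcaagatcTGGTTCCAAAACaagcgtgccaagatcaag
En2: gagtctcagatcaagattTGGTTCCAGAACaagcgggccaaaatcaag
Gbx2: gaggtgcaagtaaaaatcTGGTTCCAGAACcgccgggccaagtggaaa
Otx1: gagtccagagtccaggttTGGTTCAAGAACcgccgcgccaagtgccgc
Otx2: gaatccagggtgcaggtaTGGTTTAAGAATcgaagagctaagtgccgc
Irx1: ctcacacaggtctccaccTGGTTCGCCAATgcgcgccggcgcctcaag
Irx2: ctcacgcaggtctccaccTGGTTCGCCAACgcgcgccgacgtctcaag
Irx3: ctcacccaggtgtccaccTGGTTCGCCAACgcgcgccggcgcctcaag
Irx5: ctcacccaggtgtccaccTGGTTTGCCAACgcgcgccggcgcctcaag

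These stretches came from GENCODE transcripts of GRCm38. That of En1 lay at chr1:120607040-120607087 on the plus strand, that of En2 at chr5:28170286-28170333 on the plus strand and that of Gbx2 at chr1:89928758-89928805 on the minus strand, each in exon 2 of 2. The Iroquois stretches all lay in exon 2, Irx1 at chr13:71960004-71960051 (minus), Irx2 at chr13:72630793-72630840 (plus), Irx3 at chr8:91800508-91800555 (minus) and Irx5 at chr8:92359756-92359803 (plus). In Otx1 (chr11:21997026-21998384, minus) and Otx2 (chr14:48659294-48661313, minus) the stretch ran from exon 4 into exon 5. Irx3 and Irx5 matched at 47 of 48 bases, the closest pair of the 36 pairs of members, and pairs within the Iroquois family matched at 43 or more. En1 and En2 matched at 43 bases and Otx1 and Otx2 at 38. Between families, the closest pairs matched at 32.

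Kallisto assigns reads by short words of sequence, so words that occur in several genes bear on these values. Over whole transcripts the members shared little with each other. Of the 31-base words of Irx5, 2.03% occurred in Irx1, Irx2 or Irx3, the largest such share, and En1, En2, Gbx2, Otx1 and Otx2 shared none with another member. Gbx2 differed from the rest through a transcript of the opposite strand. Of its words, 42.7% also occurred in D130058E05Rik, which overlaps it and was not among the measured genes. Irx3 shared 3.40% of its words with its antisense transcript Irx3os and Otx2 shared 3.23% with the overlapping Gm49154. The sources used here gave no strand setting, so reads of such partners cannot be told apart from those of the member.

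The promoters of 3 members are shown because their fitted levels in Kmt2a+/LSL lay furthest from wildtype over the 12 libraries, En1 and Irx2 below it and Gbx2 above it. For Gbx2 this rested on Kmt2a+/+ replicate 1, without which Otx2, Irx1 and En2 lay further from wildtype than it did. KMT2A binds unmethylated CpG dinucleotides through its CXXC domain, and each CG is in capitals. The sequences are those of RefSeq on GRCm38.p6, from 250 bases before to 50 bases after the start, 5′ to 3′ in the direction of transcription. RefSeq promoters were matched for 5 members, En1, Gbx2, Irx2, Irx3 and Otx2, the last with 4 starts.
En1: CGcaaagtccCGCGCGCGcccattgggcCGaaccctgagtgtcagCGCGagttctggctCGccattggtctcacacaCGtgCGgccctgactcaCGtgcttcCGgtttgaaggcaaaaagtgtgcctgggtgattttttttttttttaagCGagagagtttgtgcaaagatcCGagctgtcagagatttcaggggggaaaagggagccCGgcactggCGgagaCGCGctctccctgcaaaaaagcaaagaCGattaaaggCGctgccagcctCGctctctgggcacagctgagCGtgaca
Irx2: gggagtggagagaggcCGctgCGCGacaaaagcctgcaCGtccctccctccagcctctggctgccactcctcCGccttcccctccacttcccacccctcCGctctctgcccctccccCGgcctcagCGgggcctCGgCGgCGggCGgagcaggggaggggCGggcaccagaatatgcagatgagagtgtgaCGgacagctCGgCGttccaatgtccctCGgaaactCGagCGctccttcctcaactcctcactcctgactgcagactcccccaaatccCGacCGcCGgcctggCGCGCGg
Gbx2: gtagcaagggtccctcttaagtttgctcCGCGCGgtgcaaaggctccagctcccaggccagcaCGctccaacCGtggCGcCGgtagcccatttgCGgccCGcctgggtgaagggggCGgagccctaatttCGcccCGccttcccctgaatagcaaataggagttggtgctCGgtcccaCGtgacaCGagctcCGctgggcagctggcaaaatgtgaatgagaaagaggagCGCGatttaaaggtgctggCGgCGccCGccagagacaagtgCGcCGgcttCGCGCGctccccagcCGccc

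The En1 promoter (chr1:120602237-120602536, plus strand) held 23 CG dinucleotides, the Irx2 promoter (chr13:72628570-72628869, plus strand) 25 and the Gbx2 promoter (chr1:89931127-89931426, minus strand) 27. At least as many stood in 37.9%, 32.2% and 26.9% of the 15622 promoters of genes tested, whose median was 18. Irx3 had 14, and the 4 Otx2 starts had between 6 and 16. The homeodomain core TAATTA, searched on both strands, stood in none of the 3 printed windows and in 2 of the 4 Otx2 windows, against 3.07% of promoters of genes tested.

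Library totals lay between 18280008 and 28596919 estimated counts. The targeted gene followed the labels. Normalised counts are counts after TMM scaling for library size. Kmt2a averaged 6943 ± 238 of them in Kmt2a+/+ (SD, n = 3 here and below) and 3981 ± 9.39 in Kmt2a+/LSL. With nestin-Cre it averaged 7124 ± 327 on the Kmt2a+/+ background and 6518 ± 305 on the Kmt2a+/LSL background. One wildtype library, Kmt2a+/+ replicate 1, stood apart. It had the lowest total, and its median correlation with its own genotype was 0.903 against 0.939 to 0.984 in the other 11. Among genes of the FGF response, Fgfr3 stood at 403 normalised counts in it and at 4054 to 12216 elsewhere. Results that rest on this library are given with and without it.

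Genes of the dorsal telencephalon, of progenitors and of both glial lineages were expressed. All 10 genes fixed for dorsal telencephalon and hippocampus were in the data, with a summed level of 14504 to 19950 normalised counts in 11 libraries and 23139 in Kmt2a+/+ replicate 1. Zbtb20, a factor of hippocampal development, made up most of that sum, with a mean of 9886. Emx2, a factor of the dorsal telencephalon, had 779 to 1490 and Lhx2, a cortical selector gene, 1486 to 3673, while Wnt8b had 34.2 to 127, Tbr1 38.2 to 67.1 in 11 libraries and 12.8 in Kmt2a+/+ replicate 1, Eomes 8.55 to 34.6 and Emx1 at most 8.19. The 8 progenitor genes, which include Nes and Sox2, summed to 173253 to 252865 in 11 libraries and 372640 in Kmt2a+/+ replicate 1. Fabp7 made up most of that last sum, at 214648, and the genes did not move together there. Fabp7 and Vim (68607) were the highest of the 12 libraries in it, and Sox2 (5408), Hes5 (51.3) and Msi1 (460) the lowest. Nes, Sox9 and Slc1a3 lay within the range of the others. In the same 11 libraries 6 oligodendrocyte lineage genes summed to 79893 to 127781 and 5 astrocyte genes to 29384 to 70173. Single genes weighed heavily in these sums. Over all libraries Olig1 had a mean of 71955 and Mbp, the lowest of its list, 38.7. Slc1a2 had a mean of 19721 and S100b, the lowest of the astrocyte list, 882. Hindbrain Hox genes were low or absent, the highest of them, Hoxb1, at 5.76 to 21.4 normalised counts. Of 15 genes on that list 6 had no entry, and 8 of the 9 others had at most 20 counts in every library, the exception being Egr2 with a mean of 83.9. Markers of choroid plexus, where Otx2 and related factors are expressed, summed to only 28.6 to 74.1 over 7 genes.

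Levels can be compared between genes per transcript length. Otx1 was the highest member on this scale, at 5.48 CPM per kb (counts scaled to a common library total and divided by transcript length) on average over 12 libraries (range 2.84 to 6.82), which placed it at percentile 53.0 of the genes tested. Irx3 (1.94), Irx5 (1.89), Gbx2 (1.80) and Irx1 (1.33) followed within a narrow band in which neighbouring ranges overlapped. En2 (0.698), En1 (0.529) and Irx2 (0.377) were lower, at percentiles 30.8, 28.6 and 25.7. Otx2 was last at 0.0762, percentile 10.9, with 0 in 2 libraries. For comparison, the level per kb was 16.1 for Emx2 and 9.20 for Pax6. Together the 9 genes summed to 31.2 to 62.9 CPM (median 52.7), and Otx1 alone held 44.1% to 65.3% of that.

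**Figure D1:**
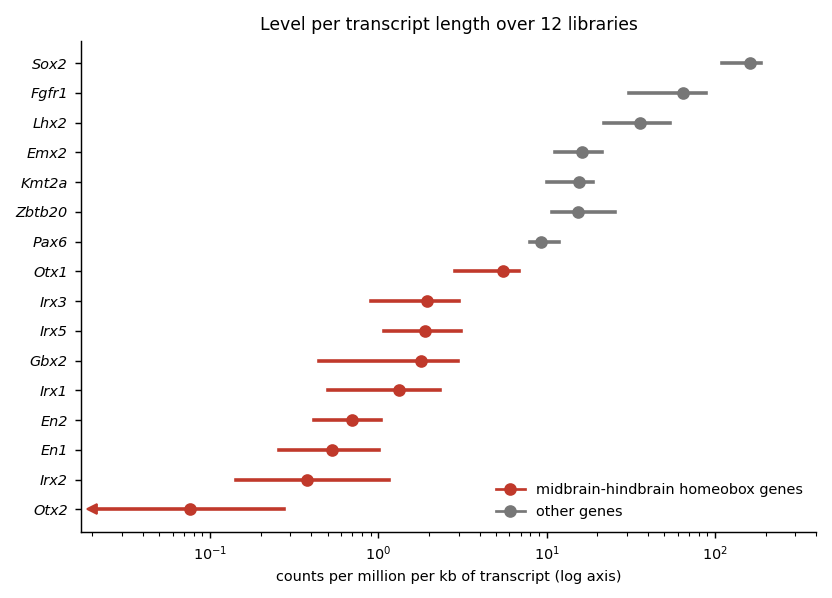
Mean (point) and range (line) of the level per transcript length over 12 libraries, in CPM per kb on a log axis, for the 9 homeobox genes (red) and 7 other genes (grey). Otx1 is the highest member at 5.48, Otx2 the lowest at 0.0762, and the arrow marks that Otx2 reached 0.

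En1 and En2 encode the Engrailed repressors that pattern the tectum and cerebellum. En1 had 27.1, 30.5 and 63.3 normalised counts in the Kmt2a+/+ replicates 1 to 3 and 16.2, 18.5 and 24.8 in those of Kmt2a+/LSL. With nestin-Cre the values were 63.3, 23.6 and 18.1 on the Kmt2a+/+ background and 45.3, 36.8 and 31.7 on the Kmt2a+/LSL background. All 3 Kmt2a+/LSL libraries lay below every Kmt2a+/+ and every Nes-Cre+/- Kmt2a+/LSL library, but overlapped the wide range of Nes-Cre+/- Kmt2a+/+. The fitted difference from wildtype was -1.03 on the log2 scale (SE 0.52), a fold of 0.489, and -1.25 without Kmt2a+/+ replicate 1. It was -0.54 without Kmt2a+/+ replicate 3, so its size depended on single wildtype libraries. With nestin-Cre the level in Kmt2a+/LSL was 0.93 higher (SE 0.52), a fold of 1.91. En1 had 18 to 77 counts per library. In bulk samples like these, fewer cells with a gene and less RNA per cell cannot be told apart.

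En2 had 54.2, 56.2 and 69.9 normalised counts in the wildtype Kmt2a+/+ replicates and 35.0, 43.8 and 49.5 among the Kmt2a+/LSL ones. The values were 80.8, 52.2 and 69.5 on the Kmt2a+/+ background with nestin-Cre and 46.5, 87.9 and 64.4 on the Kmt2a+/LSL background with it. The 3 Kmt2a+/LSL libraries were again below wildtype and also below Nes-Cre+/- Kmt2a+/+, while 1 Nes-Cre+/- Kmt2a+/LSL library fell within their range. Means ± SD were 60.1 ± 8.57 without and 67.5 ± 14.4 with nestin-Cre for Kmt2a+/+, and 42.8 ± 7.32 without and 66.3 ± 20.8 with it for Kmt2a+/LSL. The fitted differences were -0.49 (SE 0.32) for Kmt2a+/LSL against Kmt2a+/+ and 0.63 (SE 0.32) for Nes-Cre+/- Kmt2a+/LSL against Kmt2a+/LSL. Leaving out any 1 library kept both signs, with ranges of -0.61 to -0.37 and 0.38 to 0.83.

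**Figure D2:**
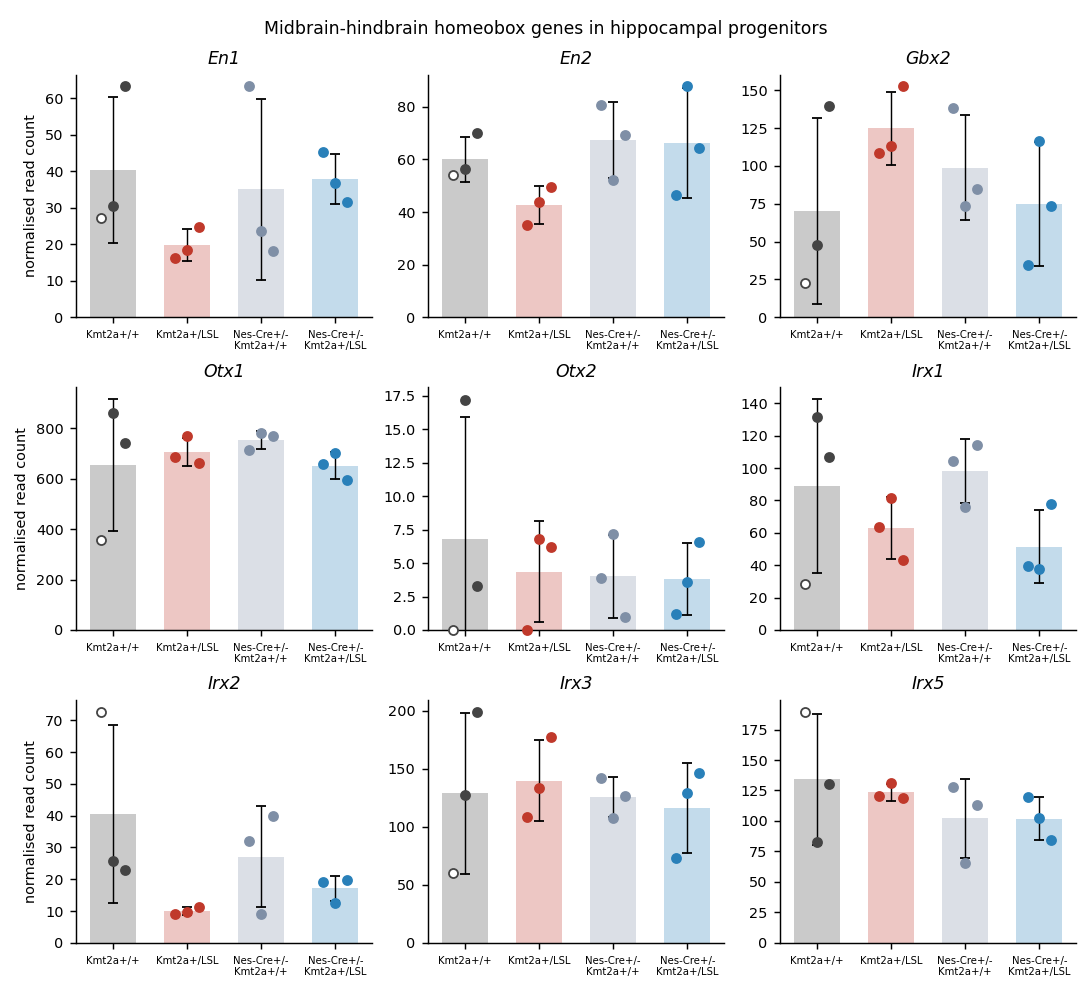
Normalised read counts of the 9 genes in each of 12 libraries (points), with the mean (bar) and SD (line, cut off at 0 for Otx2) of 3 libraries per genotype on linear axes from 0. The open point is Kmt2a+/+ replicate 1. Kmt2a+/LSL points of En1, En2 and Irx2 all lie below the Kmt2a+/+ points. For Gbx2, Otx1, Irx1 and Irx3 the open point is the lowest of the 12, and for Irx2 and Irx5 the highest.

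Gbx2 sets the hindbrain side of the boundary. It had 22.8, 47.6 and 139.8 normalised counts in the wildtype Kmt2a+/+ replicates and 109, 113 and 153 among the Kmt2a+/LSL ones. Its level was 138, 73.8 and 84.7 on the Kmt2a+/+ background with nestin-Cre and 34.6, 117 and 73.2 on the Kmt2a+/LSL background with it. Kmt2a+/LSL had the highest mean, 125 ± 24.4, and Kmt2a+/+ the lowest, 70.1 ± 61.6, and all neighbouring genotypes overlapped. Without Kmt2a+/+ replicate 1 the wildtype mean was 93.7, and Nes-Cre+/- Kmt2a+/LSL, at 74.8 ± 41.1, was then the lowest. The wildtype libraries alone spanned nearly the whole range of the data, and the fitted difference of 0.82 (SE 0.60) fell to 0.40 without Kmt2a+/+ replicate 1 and rose to 1.81 without Kmt2a+/+ replicate 3. The lowest values came from Kmt2a+/+ replicate 1 and Nes-Cre+/- Kmt2a+/LSL replicate 1, which also had the lowest library totals, 18280008 and 20448957. The part of depth and of the opposite-strand transcript in these values was not tested.

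Otx1 and Otx2 differed more in level per kb than any other pair of one family. Otx1 was steady outside wildtype. It had 359, 861 and 743 normalised counts in the wildtype Kmt2a+/+ replicates and 688, 771 and 664 among the Kmt2a+/LSL ones. Levels were 715, 782 and 769 on the Kmt2a+/+ background with nestin-Cre and 658.5, 701 and 595 on the Kmt2a+/LSL background with it. Apart from Kmt2a+/+ replicate 1, every library lay between 595 and 861. The Nes-Cre+/- Kmt2a+/LSL libraries were all below the Nes-Cre+/- Kmt2a+/+ libraries, by a fitted -0.21 (SE 0.27), a fold of 0.863. Against Kmt2a+/+, the value for Kmt2a+/LSL was 0.11 (SE 0.27) with all libraries and -0.18 without Kmt2a+/+ replicate 1, so its sign rested on that library.

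Otx2, the forebrain and midbrain determinant, was close to the detection limit. Its counts were 0, 18 and 4 in the wildtype Kmt2a+/+ replicates and 0, 7 and 6 among the Kmt2a+/LSL ones. There were 4, 7 and 1 on the Kmt2a+/+ background with nestin-Cre and 1, 4 and 6 on the Kmt2a+/LSL background with it. A count of 0 allows up to 3 counts at this depth, which in these libraries is 0.105 to 0.164 CPM. With 58 counts in 12 libraries and 4 libraries at 3 or fewer, no difference between genotypes was detectable, and the fitted values had SEs of 1.24 to 1.31 on the log2 scale in the 4 comparisons of genotypes.

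The Iroquois genes lie in clusters. Irx1 and Irx2 start 665 kb apart on chromosome 13, and Irx3 and Irx5 start 556 kb apart on chromosome 8. Irx2 showed the largest fitted difference of any member. It had 72.7, 25.7 and 23.0 normalised counts in the wildtype Kmt2a+/+ replicates and 8.98, 9.73 and 11.4 among the Kmt2a+/LSL ones. Counts were 32.1, 9.22 and 40.0 on the Kmt2a+/+ background with nestin-Cre and 19.1, 12.6 and 19.7 on the Kmt2a+/LSL background with it. Kmt2a+/LSL had 10, 10 and 11 raw counts, fewer than any Kmt2a+/+ or Nes-Cre+/- Kmt2a+/LSL library, and 1 Nes-Cre+/- Kmt2a+/+ library with 9 counts was at the same level. The mean in Kmt2a+/+ was 4.04 times that in Kmt2a+/LSL, and the fitted difference was -1.99 (SE 0.61). Kmt2a+/+ replicate 1 held the highest value, and without it the difference was -1.27, still with no overlap between the 2 genotypes. Nes-Cre+/- Kmt2a+/LSL was 0.76 above Kmt2a+/LSL (SE 0.61).

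Irx1, its neighbour, had 28.5, 131 and 107 normalised counts in the wildtype Kmt2a+/+ replicates and 63.7, 81.7 and 43.4 among the Kmt2a+/LSL ones. Its values were 104, 75.8 and 114 on the Kmt2a+/+ background with nestin-Cre and 39.4, 37.7 and 77.6 on the Kmt2a+/LSL background with it. Its means ran from 98.1 ± 19.9 in Nes-Cre+/- Kmt2a+/+ down to 51.5 ± 22.5 in Nes-Cre+/- Kmt2a+/LSL, with overlap at each step. Among the carriers of nestin-Cre, the LSL allele went with a difference of -0.93 (SE 0.51), a fold of 0.526, and without nestin-Cre with one of -0.51 (SE 0.51). The second value became -0.91 without Kmt2a+/+ replicate 1, in which Irx1 was lowest and Irx2 highest of the 12 libraries, and -0.12 without Kmt2a+/+ replicate 2.

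Irx3 had 59.9, 128 and 199 normalised counts in the wildtype Kmt2a+/+ replicates and 109, 133 and 178 among the Kmt2a+/LSL ones. It had 142, 108 and 127 on the Kmt2a+/+ background with nestin-Cre and 72.8, 129 and 146 on the Kmt2a+/LSL background with it. Its range was wide in wildtype and narrower elsewhere. Irx5 had 189.5, 82.9 and 129.9 in the wildtype Kmt2a+/+ replicates and 120.3, 131 and 119 among the Kmt2a+/LSL ones. It stood at 128, 65.6 and 113 on the Kmt2a+/+ background with nestin-Cre and 119, 102 and 84.1 on the Kmt2a+/LSL background with it. Neither gene had a genotype that stood clear of its neighbour. The ratio of the highest to the lowest genotype mean was 1.20 for Irx3 and 1.32 for Irx5, and among the members only Otx1, at 1.16, had a smaller one. For Kmt2a+/LSL against Kmt2a+/+ both changed sign without Kmt2a+/+ replicate 1, Irx3 from 0.11 to -0.23 and Irx5 from -0.12 to 0.21.

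edgeR's quasi-likelihood test with Benjamini-Hochberg adjustment called 0% of the 17076 genes tested at an adjusted p under 0.05 in each of the 5 comparisons. At an unadjusted p under 0.05 it found 190 to 306 genes. The DESeq2 Wald test called 3 to 10 genes, limma-voom 0 to 2, and the Wald test rescaled to an empirical null 7 to 945. All 9 members had passed the filter on low counts. For Kmt2a+/LSL against Kmt2a+/+, 6 members were lower and 3 higher, with a median of -0.49 against 0.0011 over all genes tested. For 3 members, En1, En2 and Irx2, every Kmt2a+/LSL library was below every Kmt2a+/+ library. No member was higher without overlap. Genes lower in this way made up 1.76% of those tested, genes higher 2.3%, and both together 4.05%. Since the members were chosen with this comparison in view, nothing is read from that count. Without Kmt2a+/+ replicate 1 the members were En1, En2, Irx1 and Irx2, all lower, where 14% of genes were lower without overlap, 14.8% higher and 28.8% either.

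For Nes-Cre+/- Kmt2a+/LSL against Kmt2a+/LSL, 3 members (En1, En2 and Irx2) were higher and 6 lower, with a median of -0.17. En1 and Irx2 were higher with no overlap, as were 3.54% of genes tested, and no member was lower in this way, as were 3.57% (7.1% in either direction). This comparison uses the same 3 Kmt2a+/LSL libraries as the last one, so opposite signs in both are partly given by the design. For Nes-Cre+/- Kmt2a+/+ against Kmt2a+/+, 4 members were higher and 5 lower, between -0.79 (Otx2) and 0.48 (Gbx2). These values depended on single libraries. With each library left out in turn, Gbx2 was lowest, at 0.069, without Kmt2a+/+ replicate 1 and highest, at 1.47, when replicate 3 of that genotype was omitted. The sign changed in such ranges for 6 members, namely En1 (-0.96 to 0.28), Otx1 (-0.092 to 0.45), Otx2 (-1.49 to 1.04), Irx1 (-0.28 to 0.52), Irx2 (-0.95 to 0.15) and Irx3 (-0.39 to 0.41). Omission of Kmt2a+/+ replicate 1 turned Otx1, Irx1 and Irx2, that of replicate 2 Otx2, and that of replicate 3 En1 and Irx3, which also turned without single Nes-Cre+/- Kmt2a+/+ libraries. No member was free of overlap, where 2.82% of genes were higher, 1.53% lower and 4.35% either. Without Kmt2a+/+ replicate 1 none was free of overlap either, where 15.7% of genes were higher, 13.6% lower and 29.3% either. For Nes-Cre+/- Kmt2a+/LSL against Nes-Cre+/- Kmt2a+/+, 8 members were lower and En1 alone higher, at 0.12 (SE 0.51). This split was loose, since Irx5 (-0.0041) changed sign in 19 of 32 alternatives, En2 (-0.024) in 7, En1 in 6 and Irx3 in 4 of 32, and Otx2 in 5 of 31. Otx1 was lower with no overlap, as were 3.58% of genes tested, and no member was higher in this way, as were 3.1% (6.68% in either direction). Nothing is read from these counts for the same reason. Subtracting the LSL effect without nestin-Cre from that with it gave 1.15 (SE 0.72) for En1, 1.32 (SE 0.83) for Irx2 and -1.21 (SE 0.84) for Gbx2. With 1 library left out they ranged from 0.66 to 1.89 for En1 (without Kmt2a+/+ replicate 3 and Nes-Cre+/- Kmt2a+/+ replicate 1), from 0.59 to 1.71 for Irx2 (without Kmt2a+/+ replicate 1 and Nes-Cre+/- Kmt2a+/+ replicate 3) and from -2.20 to -0.81 for Gbx2 (without Kmt2a+/+ replicates 3 and 1).

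**Figure D3:**
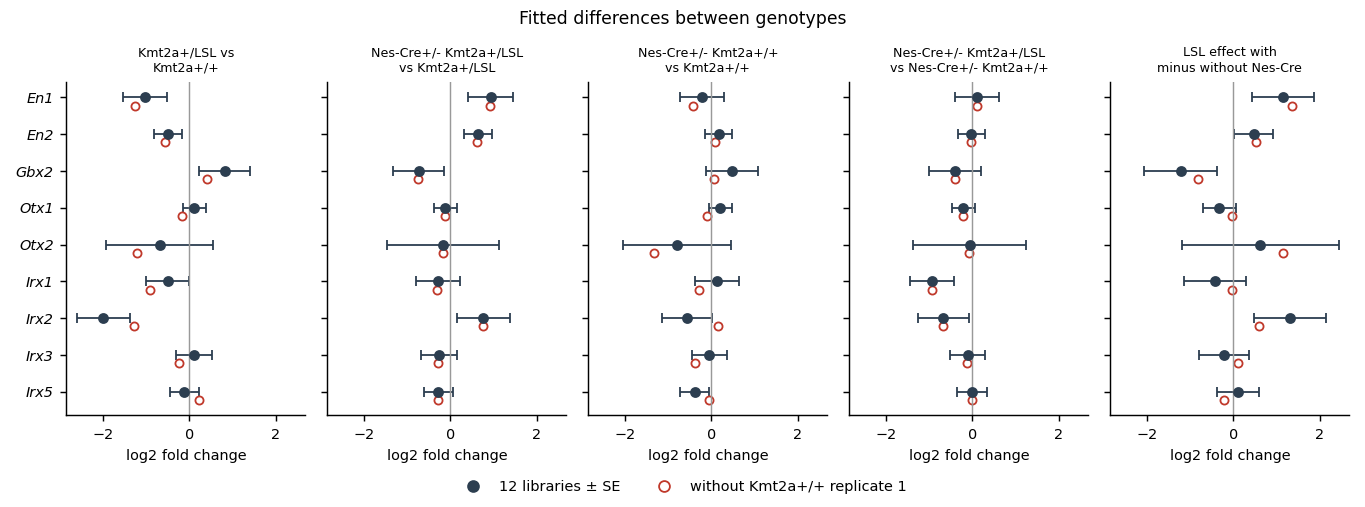
Fitted log2 fold changes of the 9 genes in 4 comparisons of genotypes and, in the last panel, of the LSL effect with nestin-Cre minus that without. Filled points with lines are values with SE over 12 libraries and open points the values without Kmt2a+/+ replicate 1; Irx2 moves from -1.99 to -1.27 and Otx1, Irx3 and Irx5 cross 0 in the first panel.

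The spread within genotypes put these differences in proportion. The SD of log2 CPM within genotypes was 0.81 for Gbx2, which exceeded that of 80.5% of 559 genes of similar level, and 0.31 for En2, which exceeded 13.2% of 506, or 29.6% without Kmt2a+/+ replicate 1. En1 (0.58), Irx2 (0.69), Irx1 (0.70), Irx3 (0.54) and Irx5 (0.41) lay between percentiles 36.0 and 69.4 of their own level classes. Irx1 fell to 0.40, at percentile 54.2, without Kmt2a+/+ replicate 1, and En1, at 0.60, then reached percentile 73.4. Otx1 went from 0.35 to 0.12 once Kmt2a+/+ replicate 1 was left out, at percentile 12.9. Otx2, with few counts, had the widest spread, 1.15 at percentile 89.7. Gbx2 stayed wide without Kmt2a+/+ replicate 1, at 0.74 and percentile 89.1.

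Across the 12 libraries some members varied together. Correlations are of log2 CPM and are descriptive, since the points share library, depth and composition. Gbx2 and Irx3 were the closest pair of the 36, with Pearson's r of 0.859 and Spearman's rho of 0.769. The value was 0.752 without Kmt2a+/+ replicate 1 and 0.524 without the 2 libraries farthest from the median of Gbx2, so it leaned on those libraries. Otx1 and Irx1 had r of 0.704 (0.463 without the 2 farthest libraries). Otx1 and Irx3 had 0.601, which was 0.022 without Kmt2a+/+ replicate 1. The paralogs En1 and En2 had 0.597 (rho 0.601), which was 0.595 without Kmt2a+/+ replicate 1 and 0.415 without the 2 farthest. Irx1 and Irx2 had r of 0.010, against 0.576 without Kmt2a+/+ replicate 1 and 0.565 without the 2 farthest. Irx3 and Irx5 had -0.29, against 0.199 and 0.466. With the mean of each genotype removed, r was 0.409 for En1 and En2 and 0.913 for Gbx2 and Irx3. It was 0.773 for Otx1 and Irx1, 0.601 for Otx1 and Irx3, -0.32 for Irx1 and Irx2 and -0.36 for Irx3 and Irx5. En2 and Gbx2 had r of 0.223 before that step and 0.786 after it.

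**Figure D4:**
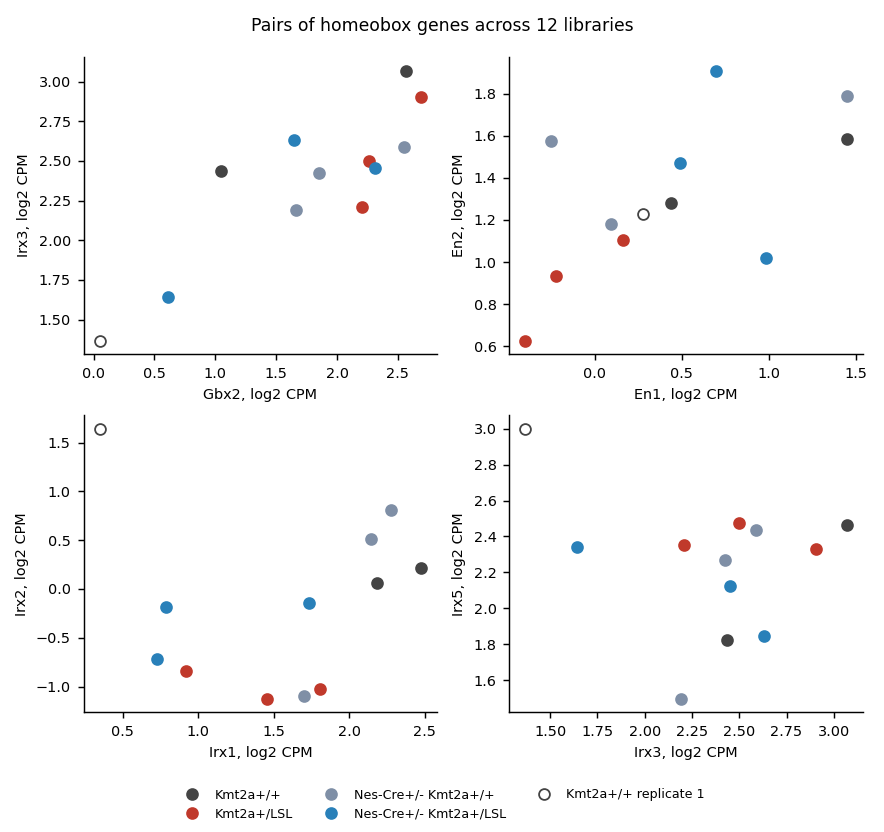
Log2 CPM of 4 pairs of members in each of 12 libraries, with points coloured by genotype and Kmt2a+/+ replicate 1 open. The open point extends the relation of Gbx2 and Irx3 (r of 0.859) and lies far from the other points for Irx1 with Irx2 and for Irx3 with Irx5.

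The secreted signals of the isthmic organizer were low. Wnt1 had no entry, Fgf8 had at most 4.93 normalised counts, Fgf17 at most 4.11 and Fgf18, with counts in all 12 libraries, 4.49 to 11.7. The paired-box factors of the organizer were equally low, with Pax2 at most 6.66, Pax5 at most 4.77 and Pax8 at most 13.1, and Lmx1b reached 4.11. Cofactors and patterning genes with wider roles were present, Sp8 at 140.0 to 251, Pbx3 at 315 to 579, Meis2 at 914 to 1694 and Tle4 at 2871 to 3784. Tle4 belongs to the Groucho corepressors that Engrailed proteins recruit.

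The receptor and feedback side of FGF signalling was strongly expressed in these cells, which were grown with FGF-2. Fgfr1 had 6652 to 10733 normalised counts in 11 libraries and 3698 in Kmt2a+/+ replicate 1, Fgfr2 1001 to 1500 in all 12, and Fgfr3 4054 to 12216 in the 11 and 403 in that replicate. Among the targets and inhibitors, Etv5 had 7309 to 12040, Etv4 2806 to 5118 (936 in Kmt2a+/+ replicate 1), Spry2 2672 to 4901, Spry1 1612 to 4031, Spry4 626 to 1622, Dusp6 1769 to 5894 and Il17rd 1188 to 3800. The Wnt receptors Fzd3 and Fzd6 and the co-receptor Lrp6 lay at 5474 to 12687, 57.5 to 108 and 3254 to 5127. Of 27 isthmic ligand, receptor, factor and feedback genes, 26 were in the data, 25 were tested, and none was called or had an unadjusted p under 0.05 in edgeR in any of the 5 comparisons. The DESeq2 Wald test called none of them either.

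**Figure D5:**
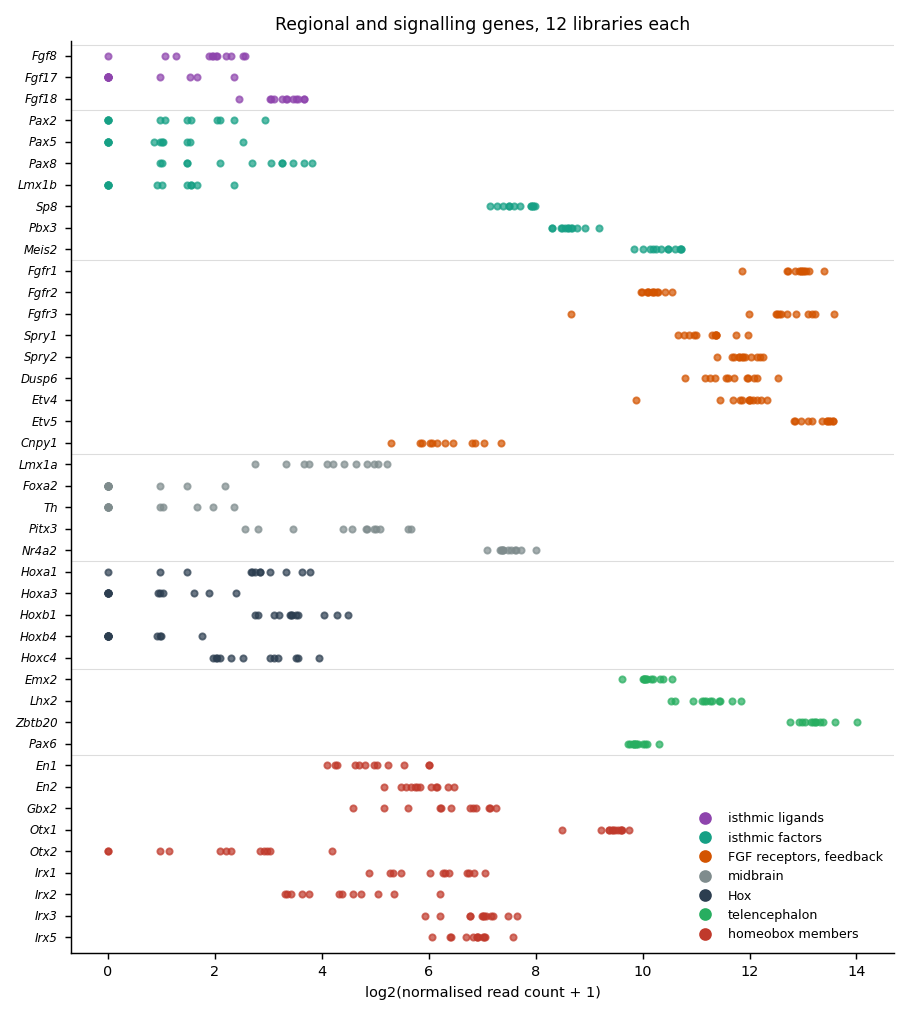
Log2 of the normalised read count plus 1 in each of 12 libraries (points) for isthmic, FGF pathway, midbrain, Hox and telencephalic genes and the 9 homeobox genes. Fgf8, Pax2, Pax5, Lmx1b and Hox genes lie at the low end of the axis, the plotted telencephalic genes (Emx2, Lhx2, Zbtb20 and Pax6) and most FGF pathway genes are the highest, and most of the homeobox genes lie between, with Otx2 at the low end too.

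Relatives of the members outside the named set were scarce. Crx, an Otx relative of the retina, had a mean of 22.5 normalised counts with 59.9 in Kmt2a+/+ replicate 1, Dmbx1, a midbrain Otx relative, had 5.71 to 29.6, Gbx1 at most 8.74 and Irx6 at most 1.09, and Irx4 had no entry. Midbrain dopaminergic genes were low or nearly absent, Th at most 4.10, Foxa2 at most 3.58, Lmx1a 9.05 to 36.2 (5.70 in Kmt2a+/+ replicate 1) and Pitx3 4.86 to 49.5, although Nr4a2, which hippocampal neurons also express, had 134 to 255. Of 7 genes fixed for the cerebellum and rhombic lip, Zic1, which the forebrain also expresses, had 1430 to 2308 and Lhx9 50.2 to 138 (177 in Kmt2a+/+ replicate 1), while Barhl1 had at most 14.2 and Ptf1a at most 1.19, Olig3 had at most 4 raw counts, and Atoh1 and Gdf7 had no entry. In all, 139 genes on 19 lists of relatives, regions, signals and cell types were followed, 122 had an entry and 107 were tested, and edgeR called none in any comparison. At an unadjusted p under 0.05 it found 1 for Nes-Cre+/- Kmt2a+/LSL against Kmt2a+/LSL and 2 for Nes-Cre+/- Kmt2a+/+ against Kmt2a+/+. The DESeq2 Wald test and limma-voom called none.

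Summed markers of other cell types set Kmt2a+/+ replicate 1 apart again. The oligodendrocyte lineage genes summed to 28168 and the astrocyte genes to 22790 there, below the ranges given above for the other 11 libraries. Neuronal genes moved both ways in that library, with Map2 at 44906 (23473 to 40116 in the others) and Snap25 at 388 (91.5 to 190), but Tubb3 at 72.7 (276 to 675) and Rbfox3 at 11.4, below the 11 others. The part of this difference in the values of Otx1, Irx1, Irx2, Irx3, Irx5 and Gbx2 in Kmt2a+/+ replicate 1 was not tested. Microglial genes summed to at most 41.3, meningeal genes to at most 477 with Foxc1 the highest (mean 274), endothelial and pericyte genes to at most 290.5, ventral telencephalic genes to at most 128, and thalamic genes to at most 928, nearly all of it Tcf7l2 (mean 814).

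Few genes near the members were in the data. En2 shares its region with Cnpy1, which encodes a regulator of FGF receptors at the isthmus and starts 80112 bases away, and with Insig1, 94331 bases away. Cnpy1 had a median of 74.2 normalised counts (range 38.2 to 162), and its fitted difference for Kmt2a+/LSL against Kmt2a+/+ was -0.61 (SE 0.47). That difference rested on Kmt2a+/+ replicate 1, which had the highest value, since the wildtype mean of Cnpy1 was 96.3 with it and 63.2 without it, against 62.5 in Kmt2a+/LSL. En2 kept a difference of -0.56 without that library. Insig1 lay between 3652 and 4682, with a difference of 0.069 (SE 0.13). Over the 12 libraries En2 had r of 0.147 with Cnpy1 and -0.29 with Insig1. Rpl15-ps1, a pseudogene near Otx1, had at most 1.90, and none of the other genes that start within 100 kb of a member or overlap it had an entry.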

How the data were processed

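Poly(A)-selected RNA of mNPCs was sequenced in 12 libraries. The authors pseudoaligned the reads with kallisto 0.48.0 to the GRCm38 (mm10) transcriptome and imported them to genes with tximport and biomaRt. What they deposited is a table of estimated counts, whole numbers without normalization, with no column left unused, and the tests planned for counts were run on them as they are. Symbols were found for 18718 of 18911 identifiers. Genotypes came from the labels.

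The members and gene lists were chosen with earlier results of these data known. The 17076 genes whose counts summed to over 10 and were above 0 in 2 or more libraries were normalized with TMM and fitted in edgeR 4.0.16 (R 4.3.3) by the quasi-likelihood method with genotype as the only term over 12 libraries, at a Benjamini-Hochberg adjusted p under 0.05. Normalised counts are counts over TMM-scaled library sizes, and log2 CPM used a prior count of 2. Alternatives were DESeq2 1.42.0, its Wald test with an empirical null re-implemented for the fdrtool step of the authors, limma-voom (limma 3.58.1), size factors, filters, the replicate number as a block and each library left out. The empirical null on 9 libraries or with a library left out, and the counts of overlap without Kmt2a+/+ replicate 1, were added after seeing the data. Each test was also tested on simulated data.

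Named genes were every member, Kmt2a, every family relative and isthmic gene, the genes of highest and lowest mean in the other lists where the text uses them, the 3 genes most like each member with a mean of at least 20, and genes overlapping a member or starting within 100 kb. Genes used to describe regional identity and cell type were also named, chosen after their values were seen. Some genes that the rule names are not reported here.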

Additional observations from a re-analysis of the deposited data

How the results depend on the processing

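Counts of calls depended on the method. For Kmt2a+/LSL against Kmt2a+/+, Nes-Cre+/- Kmt2a+/LSL against Kmt2a+/LSL, Nes-Cre+/- Kmt2a+/+ against Kmt2a+/+, Nes-Cre+/- Kmt2a+/LSL against Nes-Cre+/- Kmt2a+/+ and the difference between the LSL effects, in this order, edgeR called 0 genes in each, the DESeq2 Wald test 7, 7, 3, 3 and 10, the Wald test with an empirical null 32, 945, 7, 261 and 17, and limma-voom 2, 2, 0, 0 and 0. The empirical null on 9 libraries called 47 and 1162 in the first 2. Under the empirical null on 12 libraries, 1 member (Irx2) was called in the first comparison, beside 32 of the 17076 genes tested. In the second, 2 members (En1 and En2) were called, beside 945 of the 17076 genes. The same members were called on 9 libraries, beside 47 and 1162 genes, and every other method called 0 members. These calls rest on the values by which the members were chosen and are no test of them. With 1 library left out, edgeR called 0 to 2, 0 to 1, 0, 0 and 0 genes, above 0 only without Kmt2a+/+ replicate 1 (2 and 1), and the empirical null 0 to 242, 129 to 1268, 0 to 23, 22 to 821 and 0 to 248 genes and 0 to 1, 0 to 2, 0, 0 to 2 and 0 members. Without Kmt2a+/+ replicate 1 the empirical null called 7, 129, 7, 22 and 8 genes and no member. The cause of these differences was not tested.

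For Kmt2a+/LSL against Kmt2a+/+, En1, En2, Gbx2, Irx1 and Irx2 kept their sign under all alternatives, while Otx1 changed it in 3 of 34, Otx2 in 2 of 33, Irx3 in 5 of 34 and Irx5 in 3 of 34. The sources did not say whether libraries of the same replicate number were paired. With 3 libraries per genotype, the correlations of their deviations cannot decide it. Deviations of 18 same-numbered pairs correlated at 0.0844 on average (-0.072 to 0.416), 5 above 0.1, against -0.041 in 36 other pairs, and 6 of 12 libraries correlated best with their own number. With the replicate number as a block edgeR called 0 genes and 0 members in all 5 comparisons. Depth limited Otx2 (58 counts in all) and Irx2 (269).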

Other observations

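The genes whose log2 CPM followed each member most closely over the 12 libraries, among 11676 or 11677 genes with a mean count of at least 50, were mostly unrelated by family. Otx1 was followed by Hdac6 (Pearson's r 0.981, 0.901 without Kmt2a+/+ replicate 1), Fbh1 (0.976 and 0.866) and Isoc2b (0.976 and 0.929). Irx3 was followed by Lasp1 (0.960 and 0.928) and Ccdc12 (0.947 and 0.927). Gbx2 was followed by Slc4a1ap (0.940 and 0.910), Prr18 (0.915 and 0.846) and Ube2j2 (0.915 and 0.918). Irx1 was followed by Glce (0.940 and 0.941), Mapk8ip2 (0.905 and 0.867) and Chst3 (0.901 and 0.881). Irx5 was followed by Sltm (0.934 and 0.953), Pdgfc (0.863 and 0.819) and Rapgef2 (0.856 and 0.762).

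The members with fewer counts had weaker partners. Irx2 was followed by Sfrp1 (0.837, 0.720 without Kmt2a+/+ replicate 1), which encodes a secreted Wnt inhibitor, Zc3hav1 (0.823 and 0.711) and Magt1 (0.822 and 0.661). En1 was followed by Nptx2 (0.809 and 0.825), Zfp566 (0.794 and 0.856) and the netrin gene Ntn4 (0.786 and 0.793). En2 was followed by Capn6 (0.792 and 0.811), Cdk2ap1 (0.780 and 0.794) and 1810010H24Rik (0.779 and 0.796). These are among the highest of more than 11000 values for each member, so they are a description of these libraries.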
